A study of Mus musculus with 18 samples.

Results

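The genes described here set how much of the small GTPase RAS is switched on: the exchange factors Rasgrp1, Rasgrp2, Rasgrp3 and Sos1, the GTPase-activating proteins Rasa1, Rasa2 and Rasa3, and the brakes Spred1, Spred2 and Spry1. They were found as the probe sets whose only platform gene symbol was one of these 10 names. All 10 genes were on the array, out of 18193 genes with a single symbol. They had 35 probe sets, of which 30 passed a filter on low signal (at least 4 arrays with a signal above 15.2, the median over the whole table), so that all 10 genes were among the 11104 genes tested.

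RNA was measured on 18 Affymetrix Mouse Genome 430 2.0 arrays in splenic CD23+ B lymphocytes of C57BL/6J mice, and CD23 is a surface receptor carried by follicular B cells. There were 5 samples of anti-IgD with PF-303, 4 of anti-IgD with vehicle, 5 of PBS with PF-303 and 4 of PBS with vehicle. PF-303 is an inhibitor of BTK, the kinase that relays the B-cell receptor signal to phospholipase C. It or its vehicle was injected 2 h before anti-IgD, an antibody that crosslinks the receptor in the living animal, or before PBS, and cells were taken 2 h after that. No genotype other than the C57BL/6J strain and no age is stated in the labels used here. Whether each numbered sample is 1 animal of its own is not said in the labels, so the spread that the p-values rest on is that between samples and may be partly technical.

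As background, RAS is active when it holds GTP. Exchange factors load it with GTP, GTPase-activating proteins make it hydrolyse the GTP, and active RAS starts the RAF-MEK-ERK kinase cascade. In lymphocytes RASGRP1 and RASGRP3 are recruited by diacylglycerol, a product of phospholipase C, whereas SOS1 is brought to the membrane by the adaptor GRB2. RASGRP2 acts mainly on RAP1, a relative of RAS that controls integrins, and RASA3 acts on both RAS and RAP1. SPRED proteins recruit the GTPase-activating protein neurofibromin to the membrane, and Sprouty proteins such as SPRY1 dampen signalling by receptor tyrosine kinases.

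In cells of vehicle-treated mice, anti-IgD lowered all 3 RASGRP exchange factors, Sos1 and Rasa3, and raised Rasa2, Spred1 and Spred2. The rise of Spred2 there lost its call under 10 of 33 alternative ways of processing. PF-303 left Rasgrp1, Rasgrp2, Rasgrp3 and Rasa3 higher after anti-IgD than vehicle did. Of these 4, Rasgrp3 kept 19.4% of the log2 response measured with vehicle, Rasgrp2 kept 54.5%, Rasa3 68.6% and Rasgrp1 75.4%. These shares have no interval and are those of the probe set of highest mean signal. Another Rasgrp1 probe set gave -0.55 with PF-303 against -1.12 with vehicle, and another of Rasgrp2 -1.32 against -1.91. The order of Rasgrp1 and Rasgrp2 therefore depends on the probe set. The difference between the responses with PF-303 and with vehicle passed the test for Rasgrp3, Rasgrp2 and Rasa3, and missed it for Rasgrp1. The responses of Sos1, Rasa2, Spred1 and Spred2 passed the test with PF-303 as well as with vehicle.

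Because these 4 genes fell with anti-IgD and were higher with PF-303, the windows around their transcription starts are shown. They run from 250 bases before to 50 bases after each start that the RefSeq table for GRCm38.p6 lists, and Rasgrp2 and Rasgrp3 have a pair of starts each. Sequences are 5′ to 3′ on the gene's strand, and capitals mark matches on either strand to GGGCGG for the GC box, to GGAAAA for the core of an NFAT site and to CCGGAAG for an ETS site.
Rasgrp1, chr2:117342828-117343127 (- strand): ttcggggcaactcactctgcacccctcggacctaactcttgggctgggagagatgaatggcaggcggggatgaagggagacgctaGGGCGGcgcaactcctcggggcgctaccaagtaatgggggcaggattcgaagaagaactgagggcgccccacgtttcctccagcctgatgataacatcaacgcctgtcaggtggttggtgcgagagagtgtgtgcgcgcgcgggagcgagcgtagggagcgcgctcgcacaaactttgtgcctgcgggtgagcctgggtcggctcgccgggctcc
Rasgrp2, upstream start, chr19:6399625-6399924 (+ strand): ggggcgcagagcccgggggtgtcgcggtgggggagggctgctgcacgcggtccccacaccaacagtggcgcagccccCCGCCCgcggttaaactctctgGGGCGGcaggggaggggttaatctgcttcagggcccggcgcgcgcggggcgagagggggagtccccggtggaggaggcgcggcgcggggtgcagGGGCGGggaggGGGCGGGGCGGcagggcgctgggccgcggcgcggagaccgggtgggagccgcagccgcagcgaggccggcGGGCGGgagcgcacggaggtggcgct
Rasgrp2, downstream start, chr19:6401455-6401754 (+ strand): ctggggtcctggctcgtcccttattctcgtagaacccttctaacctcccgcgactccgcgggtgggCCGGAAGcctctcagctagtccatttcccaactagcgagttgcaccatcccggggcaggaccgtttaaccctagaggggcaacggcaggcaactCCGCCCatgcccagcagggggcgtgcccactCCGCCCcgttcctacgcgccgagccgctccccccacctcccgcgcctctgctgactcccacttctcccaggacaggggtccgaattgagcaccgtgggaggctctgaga
Rasgrp3, upstream start, chr17:75435655-75435954 (+ strand): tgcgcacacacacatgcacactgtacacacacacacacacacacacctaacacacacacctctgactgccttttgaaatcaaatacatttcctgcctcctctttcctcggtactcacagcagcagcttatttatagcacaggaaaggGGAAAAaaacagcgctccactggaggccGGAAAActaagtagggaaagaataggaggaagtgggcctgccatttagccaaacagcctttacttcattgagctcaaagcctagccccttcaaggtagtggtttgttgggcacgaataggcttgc
Rasgrp3, downstream start, chr17:75465288-75465587 (+ strand): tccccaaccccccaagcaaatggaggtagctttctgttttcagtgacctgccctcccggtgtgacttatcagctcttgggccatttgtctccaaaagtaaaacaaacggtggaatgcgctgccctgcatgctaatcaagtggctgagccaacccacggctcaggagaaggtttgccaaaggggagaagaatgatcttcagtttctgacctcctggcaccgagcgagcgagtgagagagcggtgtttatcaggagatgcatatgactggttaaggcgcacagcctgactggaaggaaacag
Rasa3, chr8:13677538-13677837 (- strand): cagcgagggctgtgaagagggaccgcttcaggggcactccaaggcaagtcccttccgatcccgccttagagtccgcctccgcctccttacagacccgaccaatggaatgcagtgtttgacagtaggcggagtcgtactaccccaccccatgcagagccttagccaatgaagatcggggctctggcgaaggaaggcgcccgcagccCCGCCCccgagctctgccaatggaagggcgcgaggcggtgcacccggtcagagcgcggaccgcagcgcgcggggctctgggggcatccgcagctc
Neither Rasgrp3 window held a GC box. The upstream window had 48.3% G+C with 5 CpG dinucleotides and the downstream one 52.7% with 9, close to the medians of 52.7% and 7 over 32851 windows of the same length in the table. The Rasgrp1 window had 26 CpG, those of Rasgrp2 40 and 23, and that of Rasa3 26, and these 4 windows held at least 1 GC box. In the upstream Rasgrp2 window a pair of the 6 GC boxes overlaps. Of all windows, 35.7% held a GC box, 23.4% the NFAT core and 8.86% the ETS site. In all, 9 of the 12 windows of the 10 genes held a GC box, 5 the NFAT core, 2 the ETS site (Rasgrp2 and Rasa1) and 1 a FOXO site (TGTTTAC, in Rasa1, against 3.65% of all windows). None of the 12 held the EGR site GCGNGGGCG (5.55% of all windows), the AP-1 site TGANTCA (7.81%), the CRE TGACGTCA (1.79%) or the E-box CACGTG (7.15%). A match or its lack is a description of these letters in these windows.

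The values below are MAS5 signals in arbitrary units, from arrays that were each scaled to one mean. They may be compared between groups for one gene but not between genes. Fold changes are differences of log2(signal + 16) and come with the standard error of the limma fit. A gene was called when its Benjamini-Hochberg adjusted p over the 11104 genes was under 0.05. In bulk samples, fewer cells of a type and less RNA per cell cannot be told apart.

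Rasgrp1 encodes a diacylglycerol-dependent RAS exchange factor of T and B cells. Its signal was 360.4, 317.6, 363.3, 462.9 and 355.6 in anti-IgD with PF-303, against 237.9, 227.6, 247.3 and 228.1 in anti-IgD with vehicle. It was 817.7, 862.2, 737.9, 829.1 and 786.9 in PBS with PF-303, against 697.8, 647, 699 and 637.3 in PBS with vehicle. The 4 groups did not overlap, with PBS with PF-303 highest and anti-IgD with vehicle lowest. With vehicle, anti-IgD lowered it by a log2 fold change of -1.45 ± 0.09 (SE; limma adjusted p = 1.3e-11), and with PF-303 by -1.09 ± 0.08 (adjusted p = 3.4e-10). After anti-IgD, PF-303 raised it by 0.62 ± 0.08 over vehicle (adjusted p = 7.3e-06). In PBS-injected mice the difference of 0.26 ± 0.08 did not pass (adjusted p = 0.19), although the arrays of these groups did not overlap. The difference between the responses, 0.36 with a 95% interval of 0.11 to 0.60, also missed the threshold (adjusted p = 0.057). These values are those of the brightest Rasgrp1 probe set. The mean of its probe sets gave -0.61 with PF-303 and -0.98 with vehicle, and 0.39 for PF-303 over vehicle after anti-IgD, all called. For PF-303 over vehicle in PBS-injected mice its 4 probe sets ran both ways, from -0.29 to 0.26, and none was called.

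Rasgrp2 encodes the RAP1 exchange factor known from platelets and lymphocytes. It gave 364.6, 348.4, 378.9, 393.4 and 349.9 in anti-IgD with PF-303, against 222.4, 234.4, 273.2 and 207.7 in anti-IgD with vehicle. The PBS arrays read 598.2, 591.2, 649.5, 631.7 and 656.4 with PF-303, against 615.1, 502.8, 711.6 and 699.8 with vehicle. The PBS groups overlapped each other, and every anti-IgD array lay below every PBS array. Anti-IgD lowered Rasgrp2 by -0.74 ± 0.09 with PF-303 (adjusted p = 5.2e-07) and by -1.37 ± 0.10 with vehicle (adjusted p = 1.5e-10). The responses differed by 0.62 ± 0.13 (adjusted p = 0.0038), and PF-303 over vehicle after anti-IgD was 0.62 ± 0.09 (adjusted p = 2.2e-05). Without the 6 arrays whose spike-in signal was high, the difference between responses lost its call (0.47, adjusted p = 0.072), and 3 of the 4 Rasgrp2 probe sets, at 0.25 to 0.59, were not called for it. In PBS-injected mice the drug's difference was 0.00 with a 95% interval of -0.19 to 0.19.

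Rasgrp3, a RAS and RAP exchange factor with high expression in B cells, kept the smallest share of its response with PF-303 among the 5 genes that fell. Its signal was 1125, 836.3, 809.5, 1085 and 938.3 in anti-IgD with PF-303, against 533, 451.4, 507.2 and 508.8 in anti-IgD with vehicle. In PBS-injected mice it was 1122, 1113, 1102, 1069 and 1154 with PF-303, against 940, 1158, 1092 and 1354 with vehicle. The anti-IgD arrays with vehicle stood apart below all others, whereas those with PF-303 overlapped both PBS groups. With vehicle, anti-IgD lowered Rasgrp3 by -1.15 ± 0.11 (adjusted p = 1.0e-08). With PF-303 the response was -0.22 with a 95% interval of -0.42 to -0.02 and did not pass (adjusted p = 0.079), and against PBS with vehicle the anti-IgD arrays with PF-303 differed by -0.24 ± 0.10 (adjusted p = 0.088). The difference between the responses was 0.93 ± 0.14 (adjusted p = 4.2e-04), and PF-303 over vehicle after anti-IgD was 0.91 ± 0.10 (adjusted p = 8.3e-07). Without replicate 1 of anti-IgD with PF-303 the response with the drug passed, at -0.28 (adjusted p = 0.027), and without replicate 4 of that group it also passed, at -0.27 (adjusted p = 0.041). It passed as well after quantile normalization (-0.27), with the mean of the probe sets (-0.21), with the spike-in signal as a covariate (-0.23) and without the 2 arrays whose Gapdh ratio was high (-0.28).

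Sos1 encodes the exchange factor that receptor tyrosine kinases engage through GRB2. Its signal was 198.1, 197.4, 179.6, 197.2 and 206.1 in anti-IgD with PF-303, against 185.7, 206.7, 200.7 and 177.2 in anti-IgD with vehicle. The PBS arrays read 281, 299.1, 262, 283.7 and 292.2 with PF-303, against 277.2, 272.7, 246.6 and 246.9 with vehicle. All anti-IgD arrays lay below all PBS arrays, and the drug groups overlapped within each stimulus. The fall was -0.50 ± 0.07 with PF-303 (adjusted p = 3.5e-06) and -0.41 ± 0.07 with vehicle (adjusted p = 9.4e-05). The difference between these responses was -0.09 with a 95% interval of -0.30 to 0.12 (adjusted p = 0.63). Only 1 of the 4 Sos1 probe sets that passed the filter was called lower with vehicle, and the mean of the probe sets gave -0.30 with PF-303 (adjusted p = 0.026) and -0.20 with vehicle (adjusted p = 0.16). With all arrays shifted to one median, the fall with vehicle was -0.24 (adjusted p = 0.011).

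**Figure D1:**
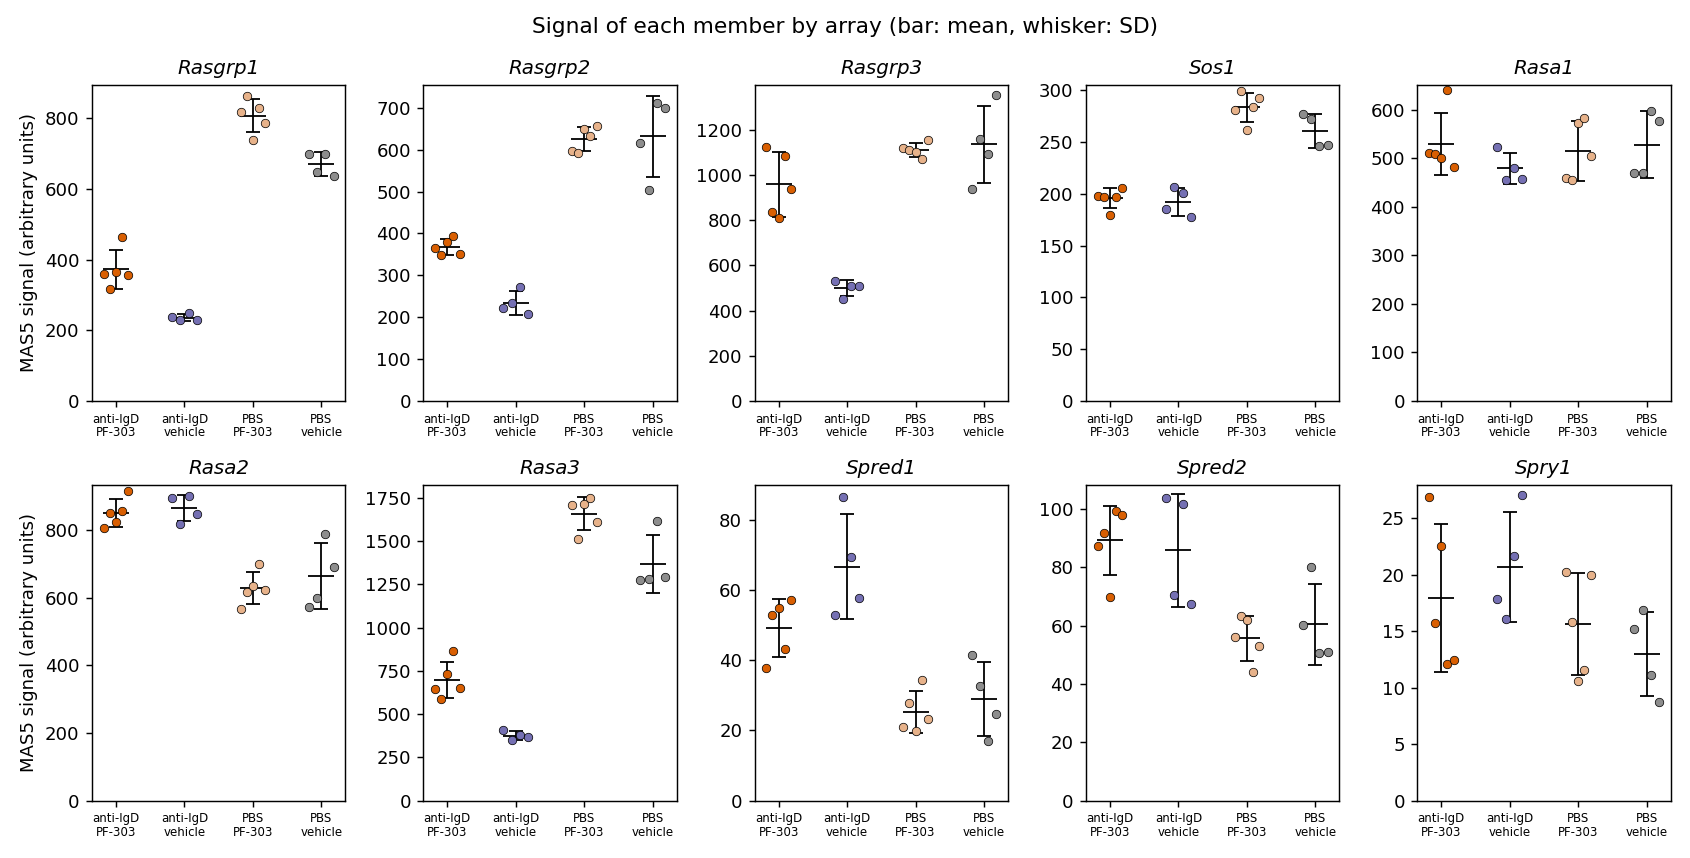
MAS5 signal (arbitrary units, axes from 0) of the 10 genes in each array, 1 panel per gene, with anti-IgD with PF-303, anti-IgD with vehicle, PBS with PF-303 and PBS with vehicle from left to right; points are arrays, bars are means and whiskers are SD. Rasgrp1, Rasgrp2, Rasgrp3 and Rasa3 are lowest in anti-IgD with vehicle, and in Rasgrp3 the anti-IgD arrays with PF-303 (809.5 to 1125) reach into the range of the PBS arrays.

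Rasa3 was the GTPase-activating protein with the largest change, and of the 10 genes it had the largest response to anti-IgD. Its signal was 644.1, 589.2, 732.6, 862.3 and 653.4 in anti-IgD with PF-303, against 408.3, 352.2, 378.4 and 365 in anti-IgD with vehicle. In PBS-injected mice it was 1707, 1512, 1714, 1749 and 1609 with PF-303, against 1273, 1282, 1615 and 1291 with vehicle. Both anti-IgD groups lay apart from each other and from the PBS groups, which overlapped through replicate 3 of PBS with vehicle. Anti-IgD lowered it by -1.24 ± 0.09 with PF-303 (adjusted p = 5.0e-10) and by -1.81 ± 0.10 with vehicle (adjusted p = 4.4e-12), a fold of 0.285. PF-303 over vehicle was 0.85 ± 0.10 after anti-IgD (adjusted p = 9.8e-07) and 0.28 ± 0.10 after PBS (adjusted p = 0.23). The responses differed by 0.57 ± 0.14 (adjusted p = 0.011). That difference lost its call with the row letter of the position code as a block (0.54, adjusted p = 0.083) and without the 6 arrays whose spike-in signal was high described below (0.53, adjusted p = 0.059).

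Rasa1 and Rasa2 encode related GTPase-activating proteins of RAS, of which RASA1 binds phosphorylated receptors through its SH2 domains. Rasa2 averaged 851.51 ± 42.4 in anti-IgD with PF-303 (SD, n = 5) and 866.07 ± 39.3 in anti-IgD with vehicle (n = 4). It averaged 629.07 ± 47 in PBS with PF-303 (n = 5) and 663.84 ± 98 in PBS with vehicle (n = 4). All anti-IgD arrays, from 806.8 to 917.6, were above all PBS arrays, from 568.2 to 789.3. Rasa2 rose by 0.43 ± 0.08 with PF-303 (adjusted p = 1.8e-04) and by 0.39 ± 0.09 with vehicle (adjusted p = 9.8e-04), and the interval of the difference ran from -0.20 to 0.29. Both of its probe sets were called in each response. Rasa1 ranged from 482.6 to 642 in anti-IgD with PF-303, from 455.5 to 523.9 in anti-IgD with vehicle, from 454.9 to 584.2 in PBS with PF-303 and from 469.3 to 597.2 in PBS with vehicle. These 4 ranges overlapped and no comparison called Rasa1. Its response was 0.04 with PF-303 (95% interval -0.16 to 0.23) and -0.13 with vehicle (-0.35 to 0.09).

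Spred1 and Spred2 encode brakes on RAS signalling. Spred1 gave 37.87, 52.94, 54.77, 43.16 and 57.19 in anti-IgD with PF-303, against 52.94, 86.45, 69.28 and 57.79 in anti-IgD with vehicle. It gave 20.85, 27.89, 19.72, 34.38 and 23.24 in PBS with PF-303, against 41.44, 32.71, 17.1 and 24.59 in PBS with vehicle. These are weak signals near the filter level. The anti-IgD arrays with either treatment lay above the PBS arrays with the same treatment. The rise was 0.66 ± 0.15 with PF-303 (adjusted p = 0.0016) and 0.89 ± 0.17 with vehicle (adjusted p = 1.6e-04). PF-303 over vehicle after anti-IgD was -0.33 with a 95% interval of -0.67 to 0.00 (adjusted p = 0.13), and the interval of the difference between responses ran from -0.70 to 0.25. Of the 5 Spred1 probe sets, 4 were called higher with PF-303 and 3 with vehicle. The mean of the probe sets gave 0.41 with PF-303 and 0.47 with vehicle, and an offset of 64 in place of 16 gave 0.34 and 0.49, all called.

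Spred2 ranged from 70 to 99.23 in anti-IgD with PF-303, from 67.61 to 103.7 in anti-IgD with vehicle, from 44.07 to 63.2 in PBS with PF-303 and from 50.78 to 80.14 in PBS with vehicle. The groups with PF-303 did not overlap, and those with vehicle did, through replicate 2 of PBS with vehicle. Spred2 rose by 0.55 ± 0.13 with PF-303 (adjusted p = 0.0020) and by 0.41 ± 0.15 with vehicle (adjusted p = 0.025). An offset of 64 gave 0.36 with PF-303 and 0.27 with vehicle, both called. Of the 4 Spred2 probe sets that passed the filter, 2 were called higher with PF-303, over a range of 0.10 to 0.60. With vehicle 2 of the 4 were called higher, over a range of -0.25 to 0.49. The mean of the probe sets gave 0.23 with vehicle (adjusted p = 0.12). The rise with vehicle lost its call under 10 of 33 alternatives, at values of 0.22 to 0.41. Among them were the fits that left out replicate 1 (0.33, adjusted p = 0.096) or replicate 4 (0.34, adjusted p = 0.091) of anti-IgD with vehicle, or replicate 3 (0.35, adjusted p = 0.075) or replicate 4 (0.35, adjusted p = 0.073) of PBS with vehicle. Spry1, with 1 probe set at 8.712 to 27.06 over all arrays, was at the filter level, and its response was 0.09 with PF-303 (95% interval -0.22 to 0.41) and 0.34 with vehicle (-0.01 to 0.69, adjusted p = 0.11).

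**Figure D2:**
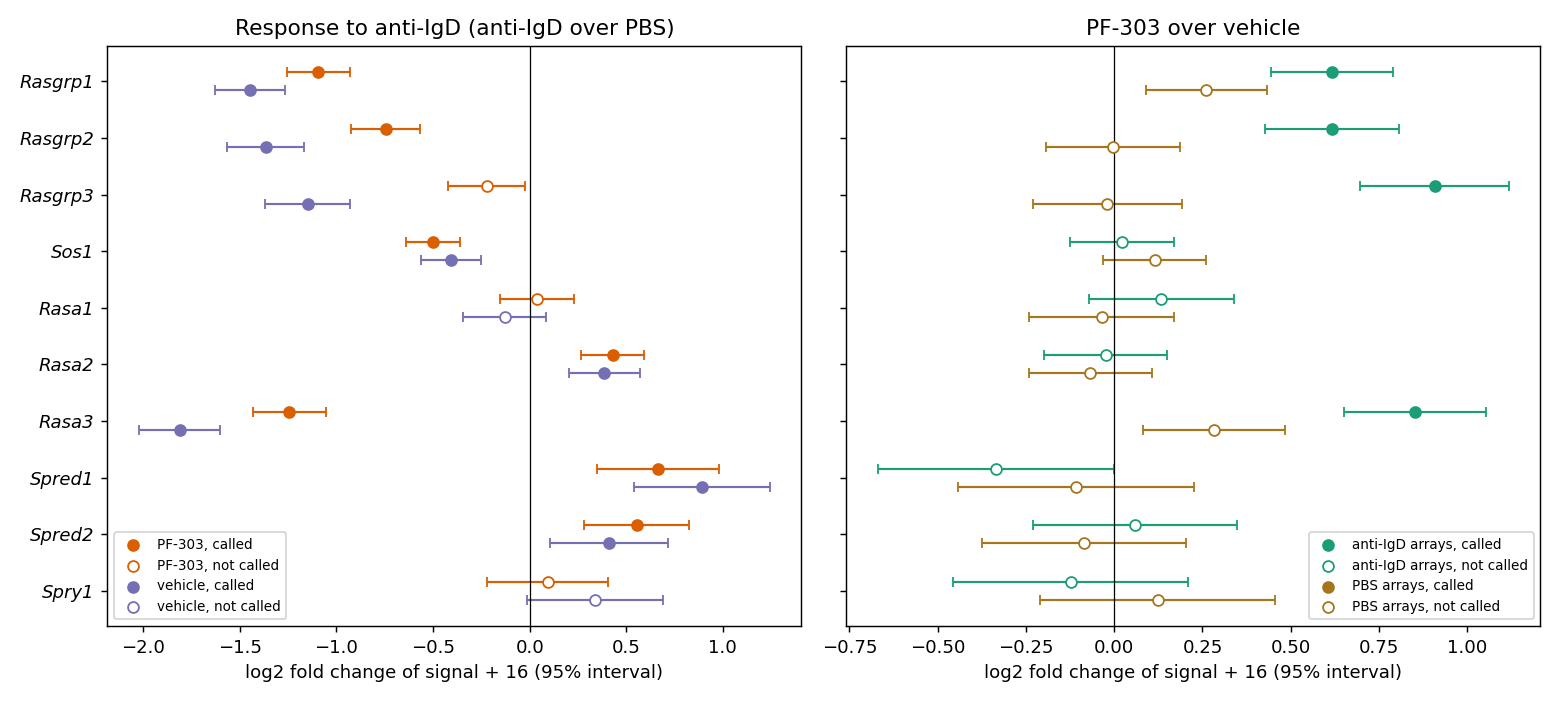
Log2 fold changes of signal + 16 with 95% intervals for the 10 genes; left, anti-IgD over PBS with PF-303 and with vehicle, and right, PF-303 over vehicle in anti-IgD arrays and in PBS arrays (filled points, adjusted p under 0.05). The Rasgrp3 response is -0.22 with PF-303, against -1.15 with vehicle, while the points of Sos1, Rasa2 and Spred2 lie side by side.

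Counted together, 8 of the 10 genes were called for anti-IgD against PBS with vehicle, 3 higher and 5 lower, where 47.9% of the 11104 genes were called (17.4% higher and 30.6% lower). In 7 of the 10 the groups did not overlap, where 42.3% of all genes did not. For anti-IgD with PF-303 against anti-IgD with vehicle, 4 of 10 were higher and none lower, where 30.2% of all genes were called, 19.8% higher and 10.4% lower, and 4 did not overlap, where 26.8% of all genes did not. None of the 10 was called for PBS with PF-303 against PBS with vehicle, where 0.747% of all genes were, and only Rasgrp1 did not overlap, where 4.11% of all genes did not. In that comparison 2 of the 10, Rasgrp1 and Rasa3, had an unadjusted p under 0.05 in the limma fit, where 10.6% of all genes did. For anti-IgD against PBS with PF-303, 7 of 10 were called, 3 higher and 4 lower, where 33.8% of all genes were, 14.7% higher and 19.1% lower, and 7 did not overlap, where 24.8% of all genes did not. For the difference between the responses, 3 of 10 were called, all with a positive difference, where 9.78% of all genes were called, 6.66% with a positive difference. For anti-IgD with PF-303 against PBS with vehicle, 3 were higher and 4 lower, where 25.5% of all genes were called, 12% higher and 13.4% lower, and 5 did not overlap, where 19% of all genes did not. These comparisons share groups of arrays and are not independent of each other. The median log2 fold change of the 10 genes was -0.27 for anti-IgD with vehicle and 0.10 for PF-303 over vehicle after anti-IgD, beside medians of -0.13 and 0.08 over all genes.

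The probe sets of one gene moved in one direction with anti-IgD for the exchange factors of the RASGRP family. All 4 of Rasgrp1, all 4 of Rasgrp2 and both of Rasgrp3 were called lower with anti-IgD and vehicle, at log2 fold changes between -1.91 and -0.55. Over all 20836 probe sets tested, 42.7% were called, 17.3% higher and 25.4% lower. After anti-IgD, all 4 probe sets of Rasgrp2, both of Rasgrp3 and 2 of 4 of Rasgrp1 were called higher with PF-303 than with vehicle. Over all probe sets, 26.3% were called there, 14.6% higher and 11.7% lower. One of the 5 Spred1 probe sets was called lower with PF-303, at -0.39. The difference between the responses was called for both Rasgrp3 probe sets and for 1 of 4 of Rasgrp2, where 6.98% of all probe sets were called. For anti-IgD against PBS with PF-303, both Rasa2 and 4 of 5 Spred1 probe sets were called higher, where 28.7% of all probe sets were called, 12.7% higher. No probe set of the 10 genes was called for PF-303 over vehicle in PBS-injected mice, where 0.576% of all were. Rasa3 and Spry1 had 1 probe set each, so their values have no second probe set to be set beside.

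**Figure D3:**
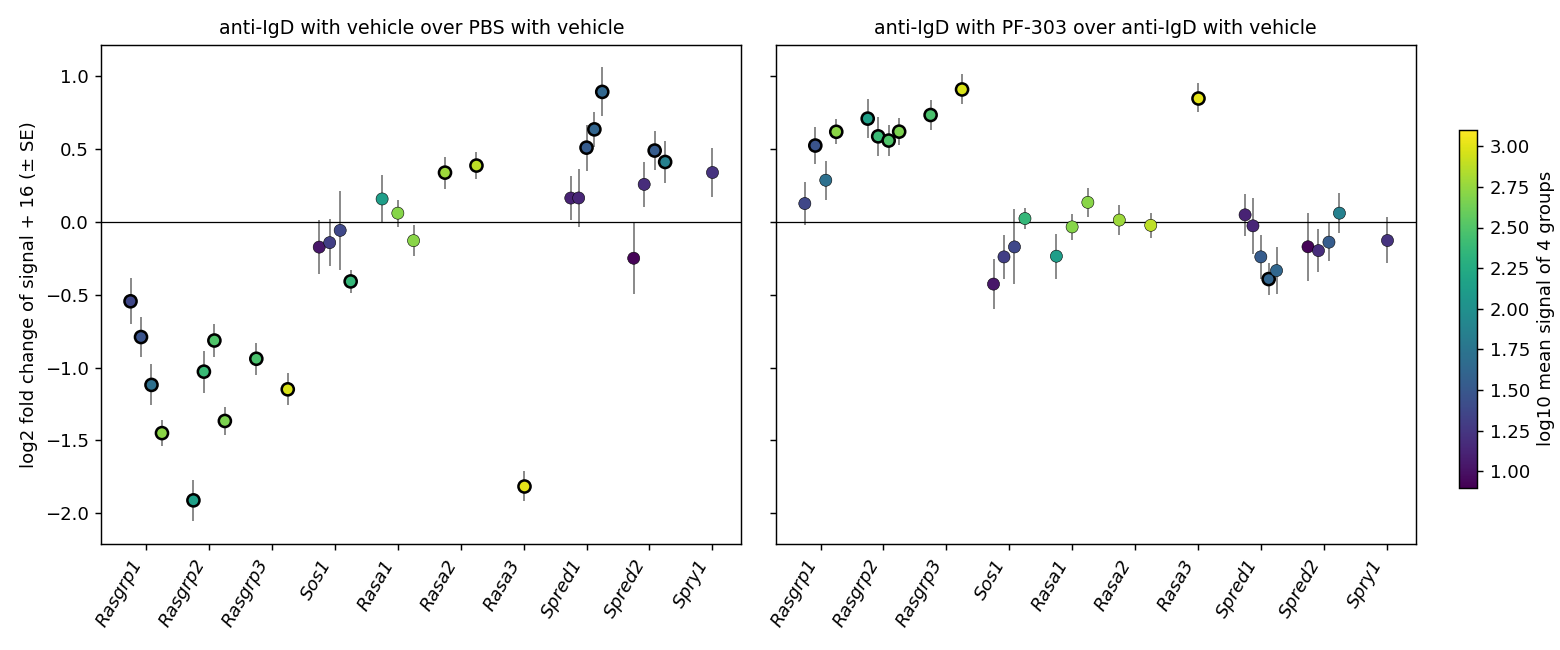
Log2 fold change of signal + 16 (± SE) of the 30 probe sets that passed the filter, by gene, for anti-IgD over PBS with vehicle (left) and PF-303 over vehicle after anti-IgD (right); colour gives log10 mean signal, and a thick outline marks an adjusted p under 0.05. The RASGRP probe sets lie between -1.91 and -0.55 on the left and above 0 on the right.

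Some technical measures and markers moved with the groups. Signals of 18 spiked-in control probe sets exceeded 2 times the median array in 6 arrays, of which 2 were in anti-IgD with PF-303, 0 in anti-IgD with vehicle, 2 in PBS with PF-303 and 2 in PBS with vehicle. The Gapdh 3′ to 5′ ratio, a measure of RNA integrity, was above 1 in 2 arrays, at 1.11 (anti-IgD with PF-303, replicate 1) and 1.22 (PBS with vehicle, replicate 4). Of 9 B-cell markers 7 were on the array and above the filter, Fcer2a, which encodes CD23, among them. Their summed signal was 20083 to 29473 in anti-IgD with PF-303, 14237 to 16930 in anti-IgD with vehicle, 19931 to 34475 in PBS with PF-303 and 19989 to 37384 in PBS with vehicle. With vehicle, anti-IgD lowered 5 of the 7 (Cd22, Cd79a, Cd79b, Fcer2a and Pax5), in the direction of the RASGRP genes and Rasa3. After anti-IgD, 3 of the 7 (Cd22, Cd79b and Fcer2a) were called higher with PF-303 than with vehicle, as the RASGRP genes and Rasa3 were. With PF-303, anti-IgD lowered only Pax5 of the 7. The difference between responses was called for Cd22 alone, with a positive difference. The part of these marker changes in those of the RASGRP genes and Rasa3 was not tested. T cells also express Rasgrp1: of 8 T-cell markers on the array 5 passed the filter, Cd3e, Cd4 and Thy1 did not, and the sum of all 8 was 104.51 to 194.47, 124.2 to 159.59, 81.779 to 167.06 and 72.838 to 181.78 in the groups in the same order. Cd5, which some B cells also carry, was called higher with anti-IgD in both treatments (0.72 with PF-303 and 0.90 with vehicle), and Il7r with PF-303 (0.41). Cd3d, Cd3g and Cd8a, which also passed the filter, were not called in any comparison. The part of T cells in the Rasgrp1 values was not tested. Of 5 stromal and endothelial markers, Pecam1, which leukocytes also express, was called lower with anti-IgD (-0.76 with PF-303 and -1.38 with vehicle) and higher with PF-303 than with vehicle after anti-IgD (0.65), in the direction of Rasgrp2, and the part of this was not tested. Platelets express Rasgrp2 and Rasa3: 4 of 5 platelet markers passed the filter, none of these was called in any of the 6 comparisons, and the sum of all 5 overlapped between all groups at 108.45 to 340.39. Macrophage markers summed to 1331.6 to 2919.2 in anti-IgD with PF-303, 779.2 to 2857.5 in anti-IgD with vehicle, 1201 to 2195.6 in PBS with PF-303 and 1330.4 to 1892.9 in PBS with vehicle, with Cd14 called higher in both responses to anti-IgD, and their part in the results was not tested.

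A position code in the sample descriptions carries a row letter, whose meaning the labels do not give. Anti-IgD with vehicle shared a letter with PBS with vehicle in 1 row, of 1 array each, where the difference was -1.44 for Rasgrp1, -1.21 for Rasgrp2, -1.16 for Rasgrp3, -0.58 for Sos1, -1.77 for Rasa3, 0.49 for Rasa2 and 0.60 for Spred1. Spred2 ran the other way in that row, at -0.20. In the 1 row that held both anti-IgD groups, PF-303 over vehicle was 0.62 for Rasgrp1, 0.74 for Rasgrp2, 0.99 for Rasgrp3 and 0.80 for Rasa3. Both rows that held anti-IgD and PBS arrays with PF-303 gave falls of Rasgrp1 (-1.23 and -0.66), Rasgrp2 (-0.70 in each), Sos1 (-0.54 and -0.38) and Rasa3 (-1.36 and -0.98) and rises of Rasa2, Spred1 and Spred2. Rasgrp3 differed between these rows, at -0.44 and -0.02. These single-row values have no test.

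Other genes of the pathway were taken from 7 lists of 68 genes, of which 55 were tested. With vehicle, anti-IgD raised 6 and lowered 22 of the 55, where 47.9% of all genes were called (17.4% higher and 30.6% lower), and the median was -0.23, beside -0.13 over all genes. After anti-IgD, 14 were higher and 2 lower with PF-303 than with vehicle (median 0.13, beside 0.08), where 19.8% of all genes were higher and 10.4% lower. None was called for PF-303 over vehicle in PBS-injected mice, where 0.747% of all genes were. With PF-303, anti-IgD raised 7 and lowered 14, where 14.7% of all genes were higher and 19.1% lower. Against PBS with vehicle, the anti-IgD arrays with PF-303 had 7 higher and 11 lower, where 12% and 13.4% of all genes were. The difference between responses was called for 5 of the 55 (Sipa1, Rasal3, Plcg2, Dgka and Dok3, all positive), a share near the 9.78% of all genes.

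Among the other exchange factors, 5 of 8 fell with anti-IgD and vehicle and none rose, where 30.6% of all genes fell and 17.4% rose. The 4 largest were Rasgrf2, an exchange factor for RAS and RAC (-1.01 ± 0.15, adjusted p = 1.1e-05), Sos2, the paralog of Sos1 (-0.71 ± 0.11, adjusted p = 1.4e-05), and the RAP exchange factors Rapgef5 (-0.48) and Rapgef1 (-0.44). With PF-303 the falls of Rasgrf2 (-0.996), Sos2 (-0.88), Rapgef2 (-0.53) and Rapgef1 (-0.25) were called. PF-303 over vehicle after anti-IgD was called for Rapgef5 (0.57), Rasgrf2 (0.47) and Rapgef6 (-0.22). The anti-IgD arrays with PF-303 were below PBS with vehicle in Sos2 (-0.55), Rasgrf2 (-0.53), Rapgef2 (-0.48) and Rapgef1 (-0.39), and in 1 more gene of the list.

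Of 12 other GTPase-activating proteins, 3 fell and 1 rose with anti-IgD and vehicle, fewer in all than the 47.9% of all genes called there. Sipa1, which acts on RAP1, fell by -1.06 ± 0.13 (adjusted p = 7.9e-07) and Rasal3, a RAS GTPase-activating protein of lymphocytes, by -0.67 ± 0.10 (adjusted p = 6.5e-06). After anti-IgD both were higher with PF-303 than with vehicle, at 0.81 ± 0.13 for Sipa1 and 0.74 ± 0.09 for Rasal3. Their responses differed by 1.06 ± 0.18 (adjusted p = 8.9e-04) and 0.84 ± 0.13 (adjusted p = 4.5e-04). Sipa1l1 fell with vehicle by -0.40, and Rasal1 rose with PF-303 by 0.62 and with vehicle by 0.70, and was above PBS with vehicle by 0.46 in the anti-IgD arrays with PF-303. Neither of the 2 other Sprouty and SPRED genes tested was called in any comparison.

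Diacylglycerol recruits RASGRP1 and RASGRP3. Among the enzymes that make or remove it, Plcg2, the phospholipase C downstream of BTK, fell with vehicle by -0.67 ± 0.08 (adjusted p = 3.6e-07). It was 0.62 ± 0.08 higher with PF-303 than with vehicle after anti-IgD, and its responses differed by 0.59 ± 0.11 (adjusted p = 0.0014). The diacylglycerol kinases, which turn diacylglycerol into phosphatidic acid, moved in opposite directions. Dgka fell by -1.14 ± 0.08 with PF-303 (adjusted p = 2.3e-10) and by -1.58 ± 0.09 with vehicle (adjusted p = 4.7e-12), whereas Dgkh rose by 1.09 ± 0.15 (adjusted p = 7.8e-06) and 1.57 ± 0.17 (adjusted p = 1.2e-07) in the same order. PF-303 over vehicle after anti-IgD was 0.50 for Dgka, -0.50 for Dgkh and 0.36 for Dgkq, and the responses of Dgka differed by 0.44 (adjusted p = 0.023). Dgkz fell by -0.44 with PF-303 and -0.56 with vehicle, and Dgkd rose by 0.52 with PF-303. Against PBS with vehicle, the anti-IgD arrays with PF-303 differed by -1.08 for Dgka, 1.07 for Dgkh, 0.36 for Dgkd and -0.34 for Dgkz.

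Of 8 RAS and RAP GTPases, Rras2 fell by -0.79 with PF-303 and -0.87 with vehicle, Rras by -0.50 and -0.64, and Rap2b by -0.31 and -0.59. Rap1a rose with vehicle by 0.27. With PF-303, 2 of the 8 were called higher, where 14.7% of all genes were, with Rap1b (0.36) among them. Rap1a averaged 2279.1 in anti-IgD with PF-303, against 1890.2 in PBS with PF-303. Rras and Rap1b were each 0.36 higher with PF-303 than with vehicle after anti-IgD. Against PBS with vehicle, the anti-IgD arrays with PF-303 were lower in Rras2 (-0.63) and Rap2b (-0.33) and higher in Rap1b (0.46) and Rap1a (0.30). None of these small GTPases was called for a difference between responses.

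In the RAF-MEK-ERK list of 9 genes tested, anti-IgD with vehicle lowered 4 and raised 2, where 30.6% of all genes fell and 17.4% rose. The 4 with the largest changes were Lztr1 (-0.85), part of a ubiquitin ligase for RAS proteins, Map2k1 (-0.59), which encodes MEK1, Araf (-0.48), a RAF kinase, and Pebp1 (0.40), which encodes a RAF inhibitor. With PF-303 the changes of Lztr1 (-0.58), Pebp1 (0.46) and Map2k1 (-0.39) were called. After anti-IgD, Map2k1 (0.30) and Araf (0.29) were higher with PF-303 than with vehicle. Against PBS with vehicle, the anti-IgD arrays with PF-303 differed in Pebp1 (0.36) and Map2k1 (-0.29).

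Of 8 adaptors, the inhibitory Dok3 fell with vehicle by -0.95 ± 0.13 (adjusted p = 1.9e-06) and was 0.95 ± 0.12 higher with PF-303 than with vehicle after anti-IgD (adjusted p = 3.7e-06). Its responses differed by 1.04 ± 0.17 (adjusted p = 7.2e-04). Gab3 fell by -0.80 with PF-303 and -0.94 with vehicle, and Grb2, which brings SOS1 to the membrane, rose by 0.42 with each. Dok1 fell with vehicle by -0.32 and was 0.28 higher with PF-303 than with vehicle after anti-IgD. Against PBS with vehicle, the anti-IgD arrays with PF-303 differed in Gab3 (-0.69) and Grb2 (0.40).

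**Figure D4:**
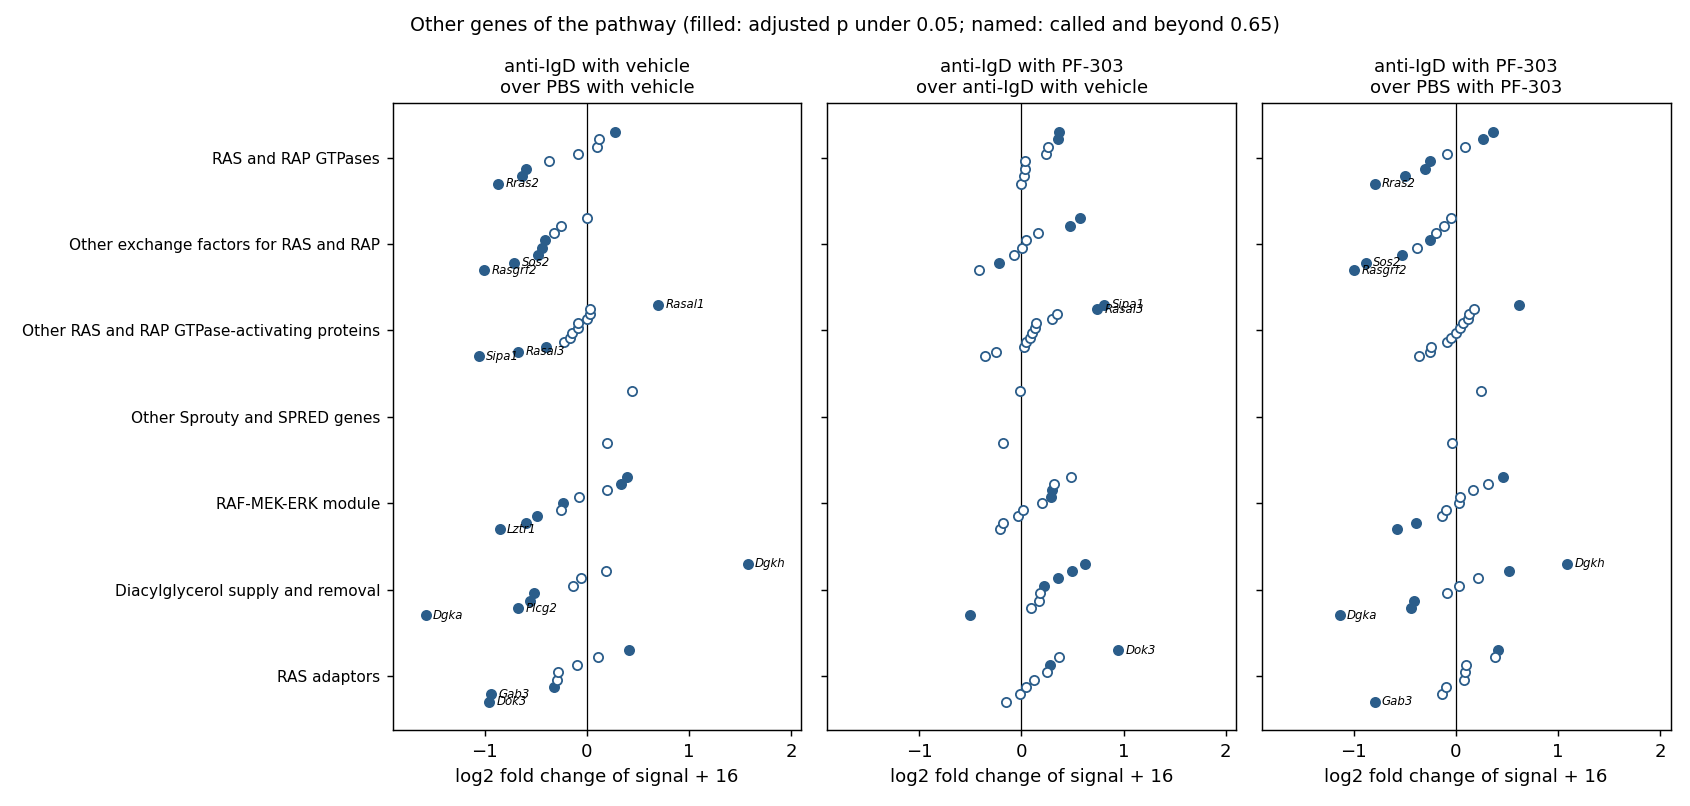
Log2 fold changes of signal + 16 for the 55 other pathway genes tested, in 7 lists, for anti-IgD over PBS with vehicle (left), PF-303 over vehicle after anti-IgD (middle) and anti-IgD over PBS with PF-303 (right); filled points had an adjusted p under 0.05. Dgka (-1.58) and Dgkh (1.57) lie at opposite ends on the left, and Dok3 (0.95) and Sipa1 (0.81) lead the middle panel.

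For each gene, those with the most similar pattern were found as the root mean square difference of centred group means (log2, 4 groups) among 6212 genes called in at least 1 of 4 comparisons. Nearest to Rasgrp3 were Ets1, a transcription factor (0.001), and Sh2d3c (0.025). Nearest to Rasgrp1 were Cdk19 (0.013) and Usf1 (0.029), to Rasgrp2 Pecam1 (0.019) and Asb2 (0.021), and to Rasa3 Tmem71 (0.030) and Trim34a (0.054). Nearest to Sos1 were Ktn1 (0.012) and Cyp2d22 (0.015), to Rasa2 Dnajb11 (0.011) and Pebp1 (0.014), to Spred1 Slc10a3 (0.009) and Mif (0.022), and to Spred2 Ahcyl2 (0.015) and Acd (0.024). For Rasa1 and Spry1, which were not called in any comparison, they were Mia3 (0.028) and Vcpip1 (0.031), and Hnrnpm (0.007) and Vapa (0.011). With 4 group means and a pool of this size, such nearness is a description of these arrays.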

How the data were processed

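The authors deposited 1 linear intensity for each probe set, the MAS5 signal, made with MAS5 per the submitters' processing notes, from 150 ng of total RNA per sample. The version and settings are not given in the sources used here. The 2% trimmed mean was 99.96 to 99.97 on all 18 arrays, so a change is relative to the rest of the array. Of 45101 probe sets, 64 were controls and were left out, 34945 had 1 platform symbol, 932 several and 9160 none. Symbols were checked through gene identifiers against RefSeq (GRCm38.p6), in which 204 probe sets were not found, so that the array's own symbol was kept.

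Signals were taken as log2(signal + 16), which shrinks the changes of weak genes. A gene's value is that of its probe set of highest mean, among those with signal above 15.2 in at least 4 arrays. One model with 4 group means was fitted with limma 3.58.1 in R 4.3.3 (lmFit, eBayes with trend), two-sided, with Benjamini-Hochberg adjustment over 11104 genes within each of 6 comparisons. The fit was tested on simulated data. The number of arrays limits the precision, and SEs of log2 fold changes had a median of 0.129 for anti-IgD with vehicle and of 0.174 for the difference between responses.

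The genes, pathway lists and markers were chosen with earlier results of these data known. All 10 genes are named, together with, per list and comparison, the 4 called genes of largest absolute change, and the 2 genes nearest to each of the 10. No arrays were identical (smallest SD of log2 differences 0.239, median within groups 0.311). Alternatives changed the offset, filter, scaling, choice of probe set, blocks, covariate and arrays. Leaving out the 2 arrays of high Gapdh ratio was chosen after seeing the data.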

Additional observations from a re-analysis of the deposited data

Results flagged for a closer look

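The fall with anti-IgD was smaller with PF-303 than with vehicle in 3 genes by the limma test of the difference itself. That difference was 0.93 for Rasgrp3, 0.62 for Rasgrp2 and 0.57 for Rasa3 on the log2 scale.

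In 2 of the 40 groups of values tested, 1 sample lay far from the others by Dixon's criterion, where chance gives about 1 in 20. Replicate 4 of anti-IgD with PF-303 had a Rasa1 signal of 642, beside 482.6 to 511.3 in the other 4 arrays. Replicate 3 of PBS with vehicle had a Rasa3 signal of 1615, beside 1273 to 1291 in the other 3, and its spike-in signal was also among the 6 high ones. Without that replicate the Rasa3 response with vehicle stayed called, at -1.73 (adjusted p = 2.1e-11).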

How the results depend on the processing

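Over 33 alternatives to 60 results on the 10 genes, 1926 of 1964 values kept their side of the threshold, 22 lost their call, 16 gained one and no called value changed sign. All 33 kept the called falls of Rasgrp1, Rasgrp2, Rasgrp3 and Rasa3 with vehicle and their rises with PF-303 over vehicle after anti-IgD. The Rasgrp3 difference between responses was also called under the 32 alternatives that could give it. Values that were not called changed sign 58 times. The Rasgrp2 difference lost its call without the 6 arrays whose spike-in signal was high (0.47, adjusted p = 0.072). The Rasgrp1 difference gained one with an offset of 1 (adjusted p = 0.049), a stricter filter (0.046) and without replicate 2 of anti-IgD with PF-303 (0.41, adjusted p = 0.028). Without replicate 3 of PBS with vehicle, Spred1 lost its call for anti-IgD with PF-303 against PBS with vehicle (0.42, adjusted p = 0.064), and so did Spred2 (0.41, adjusted p = 0.052), also without replicate 4 of PBS with vehicle (0.41, adjusted p = 0.051). There the mean of probe sets gave 0.28 for Spred1 (adjusted p = 0.051) and 0.11 for Spred2 (adjusted p = 0.50), and the arrays left after removing high spike-in signal gave 0.34 (adjusted p = 0.20) and 0.39 (adjusted p = 0.11). Rasgrp3 gained a call there when anti-IgD with PF-303 lacked its replicate 1 (-0.30) or 4 (-0.29), or PBS with vehicle its replicate 1 (-0.33). With all arrays shifted to one median, Spry1 was called for anti-IgD with vehicle (0.50, adjusted p = 0.019) and Spred1 for PF-303 over vehicle after anti-IgD (-0.44, adjusted p = 0.049). The cause of these changes was not tested.

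Shifting arrays to one median moved the median of all genes for anti-IgD with vehicle to 0.04 (log2), against -0.13, for PF-303 over vehicle after anti-IgD to -0.03, against 0.08, and for the difference between responses to -0.05, against 0.08. For anti-IgD with vehicle the called genes then split 2777 higher and 2178 lower, against 1928 and 3394. For PF-303 over vehicle after anti-IgD the split was 1283 and 1695, against 2202 and 1150, for the difference between responses 345 and 689, against 740 and 346, for anti-IgD with PF-303 against PBS with PF-303 1868 and 1770, against 1635 and 2120, and for anti-IgD with PF-303 against PBS with vehicle 1623 and 1106, against 1335 and 1493. With the position row as a block, 1725 genes were called for PF-303 over vehicle after anti-IgD (3352 without it), 42 in PBS-injected mice (83 without it) and 291 for the difference between responses (1086 without it). The count in PBS-injected mice was 155 with the spike-in signal as a covariate, 46 without the arrays whose spike-in signal was high, 28 from only the groups compared and 42 to 108 when 1 replicate was left out; the lower counts there came when PBS with PF-303 lacked its replicate 1 (52) or 4 (42), or PBS with vehicle its replicate 1 (49). Without the arrays whose spike-in signal was high 715 genes were called for the difference between responses.

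With the replicate number as a block, 5195 genes were called for anti-IgD with vehicle (5322 without it), 3361 for PF-303 over vehicle after anti-IgD, 116 in PBS-injected mice, 3935 for anti-IgD with PF-303, 982 for the difference between responses and 2905 for anti-IgD with PF-303 against PBS with vehicle, and no call on the 10 genes changed. The labels do not say whether the numbers pair the samples. Deviations of same-numbered arrays of different groups correlated at -0.161 to 0.225, with a median of -0.003 and above 0.1 in 7 of 24 pairs. Such correlations cannot decide whether samples were paired. Signals close to the filter level limit what can be said of Spry1 and Spred1.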
